A study of Mus musculus with 2 samples.

Results

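Forkhead (Fox) and Kruppel-like factor (Klf) genes encode sequence-specific transcription factors. Their expression was compared between Tc9 and Tc1 cells, CD8 T cells polarized in culture toward interleukin 9 and toward interferon gamma production. The genes were those whose platform symbol begins with Fox, a letter from a to s and a digit, or is Klf followed by a number, leaving out Klf2 and Klf3. This gave 54 genes, 39 Fox and 15 Klf genes, each with 1 probe set, of 19505 genes on the array. Foxm1 and Foxp3 were not analysed here.

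Mouse CD8 T cells isolated from spleen and lymph node were primed with antibodies to CD3 and CD28, polarized for 3 days and moved for 2 days to medium with 10 ng/mL IL-2. Polarization toward Tc9 used IL-4 at 10 ng/mL, TGF-beta at 1 ng/mL and an antibody to interferon gamma (XMG1.2) at 20 µg/mL. Tc1 cells were polarized with 10 ng/mL IL-2. RNA was taken at day 5, and strain, sex, age and the number of animals are not stated in the labels. The comparison addressed which genes Tc9 cells express more highly. There was 1 array of Tc9 cells and 1 of Tc1 cells, so no difference below has a replicate check, a standard error or a p-value, and each describes this pair of arrays. The number of arrays limits the precision.

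The Tc9 sample is named Tc9 in its title and description and Tc1 in its source name, and the title was followed. On the array titled Tc9, Il9, the cytokine that names these cells, had a log2 signal of 8.45, against 4.82 on the Tc1 array. Ifng, which encodes interferon gamma, had 7.57 on the Tc9 array and 9.28 on the Tc1 array. The defining T cell markers were bright on both arrays. Cd8a had log2 signals of 11.93 in Tc9 and 12.19 in Tc1, Cd8b1 had 11.52 in Tc9 and 11.96 in Tc1, and Cd3e had 12.80 in Tc9 and 12.92 in Tc1. Of 3 measured CD4 T cell markers, 2 were above the detection threshold, and they differed in opposite directions. Cd4 had 8.74 in Tc9 and 9.33 in Tc1, and Zbtb7b had 8.38 in Tc9 and 8.03 in Tc1. Cd40lg was below the threshold on both arrays. In RNA of a whole culture, fewer cells of a type and less RNA per cell cannot be told apart.

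Forkhead proteins bind DNA through a winged-helix domain. The FOXO branch is controlled by location: when PI3K and AKT are active the FOXO proteins are phosphorylated, held by adaptor proteins and kept out of the nucleus, and when that signal is low they enter it. In T cells FOXO1 is known for sustaining homing and survival receptors, and FOXP1 for keeping naive cells quiescent. Kruppel-like factors bind GC-rich and CACCC sequences through zinc fingers, and in lymphocytes they are known for roles in quiescence, migration and cytokine control. An mRNA signal does not report the location or phosphorylation of these proteins.

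The promoter stretches of Klf6, Foxo1 and Klf9 are shown because these were the detectable genes with the largest measured differences among those with 1 entry in the RefSeq promoter table (GRCm38.p6). Each runs 5′ to 3′ over the 250 bases before the annotated start on the plus strand. Capitals mark matches on either strand to the forkhead core GTAAACA, the GC box GGGCGG or the CACCC box CCACCC. Klf6 is at chr13:5861239-5861488, Foxo1 at chr3:52268087-52268336 and Klf9 at chr19:23140976-23141225.
Klf6: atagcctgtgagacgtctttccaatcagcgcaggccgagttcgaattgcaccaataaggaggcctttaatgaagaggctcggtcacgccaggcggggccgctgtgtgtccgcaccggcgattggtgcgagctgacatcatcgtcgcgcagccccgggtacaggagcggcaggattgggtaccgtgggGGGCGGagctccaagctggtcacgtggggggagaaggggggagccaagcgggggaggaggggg
Foxo1: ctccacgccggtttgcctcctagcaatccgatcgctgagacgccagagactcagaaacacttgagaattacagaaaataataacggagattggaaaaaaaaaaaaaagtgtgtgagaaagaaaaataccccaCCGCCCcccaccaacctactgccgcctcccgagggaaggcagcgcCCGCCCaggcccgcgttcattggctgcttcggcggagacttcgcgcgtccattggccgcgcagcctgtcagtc
Klf9: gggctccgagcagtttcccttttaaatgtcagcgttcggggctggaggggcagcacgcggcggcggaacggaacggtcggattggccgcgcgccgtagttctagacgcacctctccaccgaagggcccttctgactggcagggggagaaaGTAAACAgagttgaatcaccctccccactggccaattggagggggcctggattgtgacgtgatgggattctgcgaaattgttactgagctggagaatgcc
Klf6 had 1 GC box, beginning 63 bases before the start. Foxo1 had 2 GC boxes in reverse complement, beginning 118 and 73 bases before the start. Klf9 had 1 forkhead core, beginning 100 bases before the start, and neither of the other motifs.

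Promoter entries were held for 37 of the 54 genes, 42 windows in all. A GC box lay in 31 of these windows (73.8%), against 32.7% of all 32851 promoter windows. The CACCC box lay in 18 (42.9%), against 28.1%. The forkhead core lay in 2 (4.76%), against 3.17%. The Fox and Klf windows had a median GC content of 62%, against 52.4% for all windows, so GC-rich motifs and base composition move together here. These matches describe letters in a fixed window and were not tested as binding sites.

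Detection was defined by the brighter of the Tc9 and Tc1 signals: a gene counted as detectable from a log2 signal of 6.43, which is the median over the genes of both arrays. Of the 54 genes, 19 did so (35.2%), against 52.0% of all genes. They comprised 11 of 39 Fox genes and 8 of 15 Klf genes. Klf8 reached the threshold on the Tc1 array alone, and the other 18 on both arrays. Just inside the threshold lay Foxd3, a factor of neural crest and pluripotent cells, at 6.46 in Tc9 and 6.57 in Tc1. Just outside lay Foxo4, a FOXO relative, at 6.24 in Tc9 and 6.42 in Tc1, and Klf4, a pluripotency and quiescence factor, at 6.20 in Tc9 and 6.37 in Tc1. Signals of different probe sets are not compared with each other, because probes differ in brightness.

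**Figure D1:**
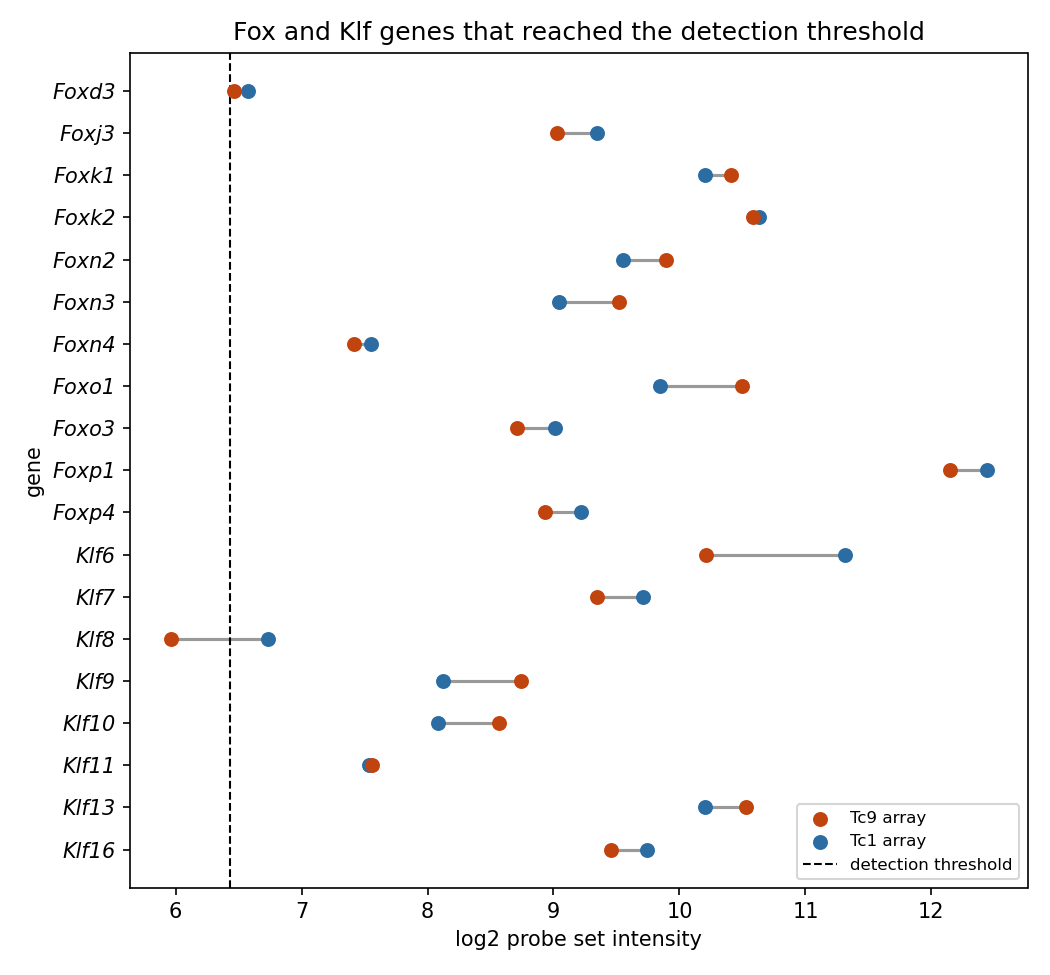
Log2 probe set intensity (x axis) of the 19 detectable Fox and Klf genes (y axis) on the Tc9 array (orange) and the Tc1 array (blue), 1 array each, with the detection threshold of 6.43 dashed. The widest gap is that of Klf6, with the Tc9 point at 10.21 and the Tc1 point at 11.32, and most other pairs lie close together.

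Klf6 was the one detectable gene of these families that differed by 2-fold. It encodes a broadly expressed zinc finger factor known as an immediate-early gene and a tumour suppressor. Its probe set had an intensity of 1182 on the Tc9 array and 2552 on the Tc1 array (log2 signals of 10.21 in Tc9 and 11.32 in Tc1), so it was 2.16-fold lower in Tc9 cells (log2 difference -1.11). It stayed past 2-fold under median centring (-1.04) and quantile normalization (-1.12). A count of 1 in 19 is close to the background, since 5.41% of the 10147 detectable genes passed 2-fold, 2.62% upward and 2.79% downward in Tc9.

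Bright probe sets gave a narrower scale for Klf6. Among 2195 genes with a mean log2 signal of 10 or more, the share lower in Tc9 cells by 2-fold or more was 1.73%. Of 430 control probe sets with pos in their ID and the same brightness, 0 differed by 2-fold, and their differences ran from -0.93 to 0.87. The Klf6 difference lies outside that range. Here and below, the spread of control probe sets on this pair of arrays does not measure how far a gene varies between cultures. The control ranges are a scale for reading and no test. No gene of either family was detectable and at least 2-fold higher in Tc9 cells.

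**Figure D2:**
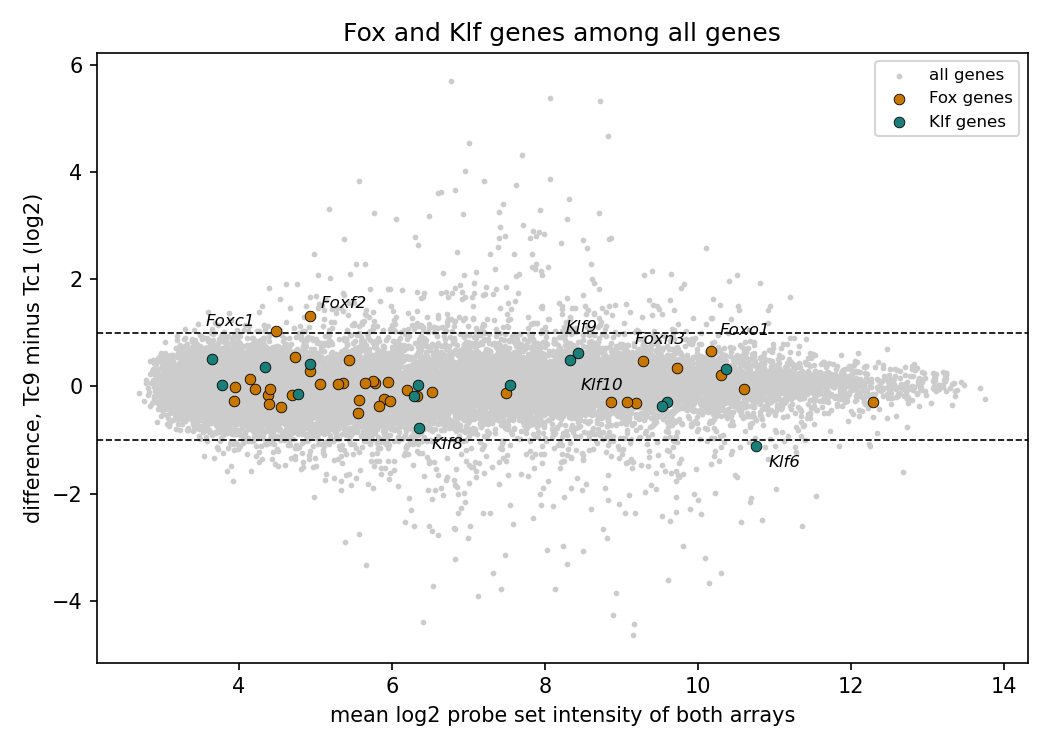
Difference Tc9 minus Tc1 (log2, y axis) against mean log2 intensity of both arrays (x axis) for all 19505 genes (grey), Fox genes (orange) and Klf genes (teal), with 2-fold dashed. Klf6 lies below the lower line at -1.11, Foxf2 and Foxc1 lie above the upper line at dim signals, and the other Fox and Klf genes lie between the lines.

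Among the FOXO genes, Foxo1 was higher and Foxo3 slightly lower in Tc9 cells. Foxo1 had an intensity of 1445 on the Tc9 array and 919 on the Tc1 array (log2 signals of 10.50 in Tc9 and 9.84 in Tc1) and was 1.57-fold higher in Tc9 cells (log2 difference 0.65). Of the 10147 detectable genes, 93.8% had a lower difference, and 7.8% were higher by 1.5-fold or more. The Foxo1 difference lies inside the full range of the 430 bright control probe sets, -0.93 to 0.87, and above their central 95%, -0.45 to 0.46. Foxo3, a relative known for promoting death and arrest genes, had 420 in Tc9 and 515 in Tc1, a log2 difference of -0.29 (1.23-fold). Foxo6, which is known from brain and liver, was too dim to be read in either culture.

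The FOXP genes leaned the other way from Foxo1 by small amounts. Foxp1 had an intensity of 4530 in Tc9 and 5552 in Tc1 (log2 signals of 12.15 in Tc9 and 12.44 in Tc1), a log2 difference of -0.29. Foxp4, a family member that can pair with FOXP1, had 489 in Tc9 and 595 in Tc1, a log2 difference of -0.28. Both differences are 1.23-fold or less and kept their sign under both other scalings, but lie inside the central 95% of control probe sets with pos in their ID that reached the threshold, -0.59 to 0.86. Foxp2, known for its role in brain circuits, was not detectable.

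Foxk1 and Foxk2, which repress autophagy genes and promote glycolytic ones, hardly differed. Foxk1 had log2 signals of 10.41 in Tc9 and 10.20 in Tc1 (log2 difference 0.21), and Foxk2 had 10.58 in Tc9 and 10.63 in Tc1 (-0.05). The Foxk2 difference turned positive after median centring. Of the Foxn genes, Foxn3, a checkpoint-associated repressor, had 9.52 in Tc9 and 9.05 in Tc1, 1.39-fold higher. Foxn2 had 9.89 in Tc9 and 9.55 in Tc1, 1.26-fold higher. Foxn4, a factor of retinal progenitors, had 7.42 in Tc9 and 7.55 in Tc1, a log2 difference of -0.13. Foxj3, which activates Mef2c in muscle, had 9.03 in Tc9 and 9.34 in Tc1, a log2 difference of -0.32. Foxd3 differed by -0.11.

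Of the remaining Klf genes, Klf9 and Klf10 were higher in Tc9 cells by less than 2-fold. Klf9, induced by glucocorticoid and thyroid hormones, had an intensity of 428 on the Tc9 array and 279 on the Tc1 array, a log2 difference of 0.62 (1.53-fold). Klf10, first described as a TGF-beta inducible early gene, had 379 in Tc9 and 271 in Tc1, a log2 difference of 0.48 (1.40-fold). Klf11, its close relative, had 188 in Tc9 and 186 in Tc1, a log2 difference of 0.02 that turned negative after quantile normalization. The same central 95% of control probe sets, -0.59 to 0.86, holds all 3 differences.

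Klf13, known as an activator of the Ccl5 chemokine gene in T cells, had log2 signals of 10.53 in Tc9 and 10.20 in Tc1, 1.25-fold higher. Klf7, a factor of neuronal growth, had 9.35 in Tc9 and 9.71 in Tc1, a log2 difference of -0.37. Klf16, a repressor, had 9.46 in Tc9 and 9.74 in Tc1, a log2 difference of -0.29. Klf8, a repressor that binds CtBP, had an intensity of 62.4 in Tc9, below the threshold, and 106 in Tc1. It was at least 1.23-fold lower in Tc9 cells, taking 6.43 as its Tc9 signal. This bound rests on the 6.43 threshold. The Tc1 log2 signal of Klf8, 6.73, lies below 7.16, percentile 95 of the negative controls, and with that threshold Klf8 is not detectable. The measured difference of -0.77 is not a size, because the Tc9 signal was too dim. Of 585 negative control probe sets that reached 6.43, 16.2% differed by 2-fold or more, 22 upward and 73 downward in Tc9.

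**Figure D3:**
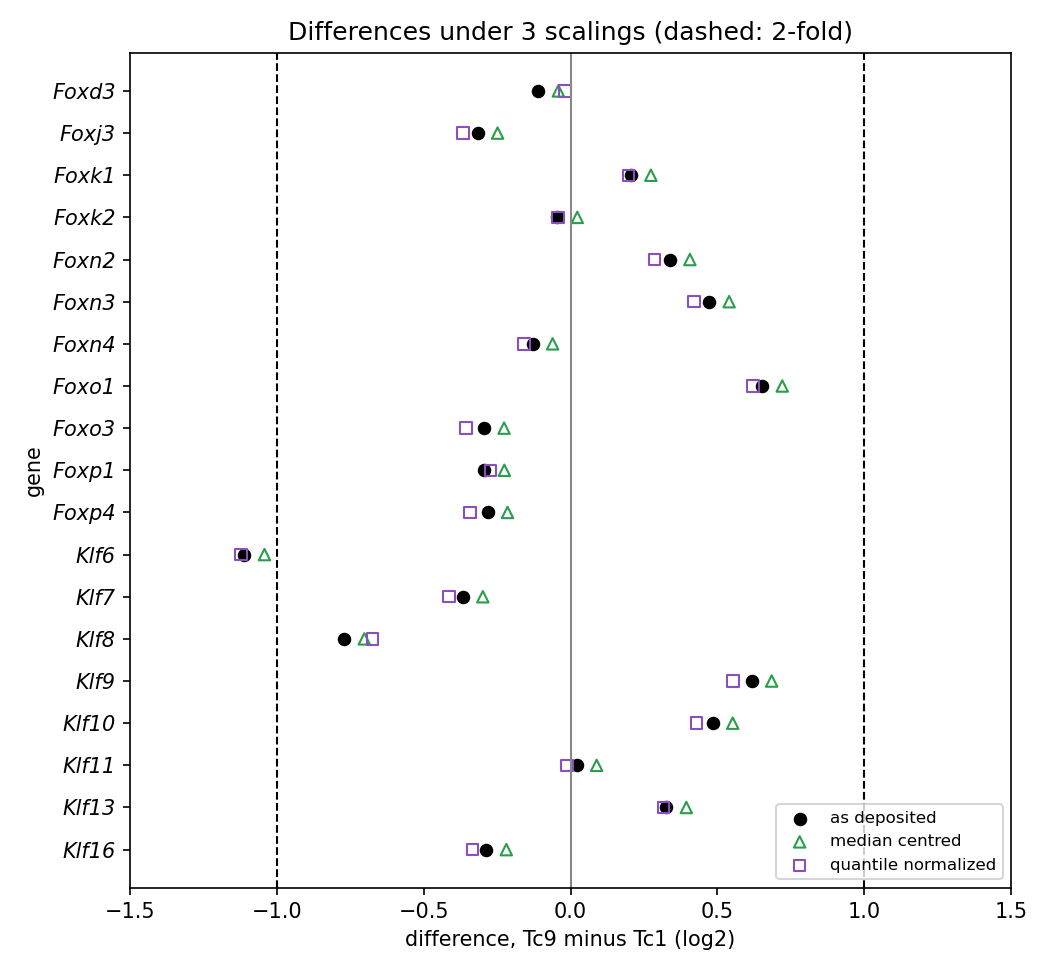
Difference Tc9 minus Tc1 (log2, x axis) of the 19 detectable genes (y axis) with the deposited values (black), after median centring (green triangles) and after quantile normalization (purple squares), with 2-fold dashed. Klf6 is the one gene past 2-fold, under all 3 scalings, and Foxk2 and Klf11 change sign.

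Over the 19 detectable genes, 8 differences were positive and 11 negative, where 56.3% of all detectable genes had a positive one. Median centring made these counts 9 and 10, as Foxk2 turned, where 64.3% of all detectable genes were positive. Quantile normalization made them 7 and 12, as Klf11 turned, where 52.6% were. The median difference was -0.11, against 0.05 over all detectable genes. For the Fox and Klf genes it was -0.04 after median centring and -0.04 after quantile normalization. The median size of the difference was 0.32 on the log2 scale, against 0.23 over all detectable genes. At 1.5-fold, Foxo1 and Klf9 were higher and Klf6 lower in Tc9 cells, though Klf9 came under 1.5-fold after quantile normalization. Klf8 passed 1.5-fold only by its measured value, and its bound is 1.23-fold. These were 4 of 19 by measured value, where 14.6% of all detectable genes passed, 7.8% upward and 6.78% downward. With dim values at the threshold they were 3 of 19, where 12.3% of all detectable genes passed. Centring each array on its median added 0.07 to every difference.

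The other 35 genes, 28 Fox and 7 Klf genes, stayed below 6.43 in both cultures, with log2 signals from 3.79 to 6.35 in Tc9 and from 3.39 to 6.42 in Tc1. Their differences ran from -0.49 to 1.31, with a median of 0.02. Most of these are developmental factors of other tissues, among them the Foxa, Foxc and Foxi genes, and Klf1, the erythroid factor. Foxf2 and Foxc1, 2 of the 35, passed 2-fold upward by measured value, where 0.919% of the 9358 genes this dim did. Foxf2 had log2 signals of 5.58 in Tc9 and 4.27 in Tc1, and Foxc1 had 5.01 in Tc9 and 3.97 in Tc1. Both lie in the range of the negative control probe sets, 91.7% of which were below the threshold on the Tc9 array and 89.9% on the Tc1 array, so no fold is given.

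Genes of the FOXO pathway were read beside the factors, from lists chosen with earlier results of these data known. The background for the list counts here and below is 2.62% upward and 2.79% downward past 2-fold among 10147 detectable genes. Of 28 measured upstream regulators, 2 passed 2-fold upward and 1 downward in Tc9 cells, with a median difference of 0.01. Sgk1, a kinase that phosphorylates FOXO proteins as AKT does, had log2 signals of 9.22 in Tc9 and 6.21 in Tc1 and was at least 6.93-fold higher. Pik3cg, a PI3K catalytic subunit, was 2.38-fold higher, and Pik3r5, the regulatory subunit that pairs with it, was 3.79-fold lower, at 8.49 in Tc9 and 10.41 in Tc1. These partners of 1 PI3K complex differed in opposite directions. Sirt1, a deacetylase of FOXO proteins, differed by -0.71 and Sgk3, a relative of Sgk1, by -0.66, while Akt1 differed by 0.02 and Akt2 by 0.14.

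Homing and identity genes known as FOXO1 targets did not move one way on these arrays, while Foxo1 itself was higher in Tc9. Of 11 measured, 2 passed 2-fold upward and 2 downward, with a median of -0.30. Over all detectable genes, 5.41% passed 2-fold in either direction, and the median was 0.05. Il6ra, an IL-6 receptor chain, was at least 5.10-fold higher, and S1pr1, the lymph node exit receptor, was 2.16-fold higher, at 9.24 in Tc9 and 8.13 in Tc1. Ccr7, the lymph node homing receptor, had 11.29 in Tc9 and 12.40 in Tc1, a log2 difference of -1.11. Eomes, a T-box factor, differed by -1.06, which came under 2-fold after median centring (-0.99). Btla, an inhibitory receptor, differed by -0.78.

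Of 27 detectable genes among 32 FOXO targets of cell cycle, death, stress and metabolism, 1 passed 2-fold upward and 3 downward in Tc9 cells, with a median of 0.04. The share of all detectable genes past 2-fold was 5.41%. The death ligands split: Tnfsf10 (TRAIL) was 4.46-fold higher, and Fasl had log2 signals of 6.56 in Tc9 and 8.06 in Tc1, 2.84-fold lower. Bcl2l11, which encodes the death protein BIM, was 2.24-fold lower and Gadd45b, a stress gene, 2.13-fold lower. Cdkn1b, the p27 cell cycle inhibitor, had 9.97 in Tc9 and 9.22 in Tc1, 1.69-fold higher. Of the mitotic genes listed as FOXM1 targets and partners, 0 of 24 passed 2-fold, and the median difference was 0.23, against 0.05 over all detectable genes. A positive difference was measured for 20 of the 24, or 21 after median centring, where 56.3% of all detectable genes had one, or 64.3% after median centring. The 4 negative ones were Mybl2 at -0.26, Lin9 at -0.25, Lin54 at -0.24 and Ube2c at -0.02. Cdc25c, a mitotic phosphatase, differed by 0.84 and Ttk, a spindle checkpoint kinase, by 0.80.

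Regulatory T cell genes other than Foxp3 were detectable for all 9 measured members, with 2 past 2-fold upward, 0 downward and a median of 0.36. Upward, 2.62% of all detectable genes passed 2-fold. Of the 9 differences, 5 were positive and 4 negative, where 56.3% of all detectable genes had a positive one. Gpr83, a receptor of regulatory T cells, was 2.95-fold higher and Izumo1r, the folate receptor family member FR4, 2.68-fold higher. Ikzf2, which encodes Helios, differed by -0.95, Lrrc32 by 0.47 and Ikzf4 by 0.41. T cell quiescence genes had 1 of 14 detectable members past 2-fold upward, S1pr1, and 0 downward, with a median of 0.17. Cdkn1b, Peli1, Btg2 and Tsc1 were the next largest, at 0.75, 0.49, -0.31 and -0.31.

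Of 14 detectable genes for co-regulators and ubiquitin ligases of Kruppel-like factors, 0 passed 2-fold, and the median difference was 0.31. A positive difference was measured for 13, or 12 after quantile normalization, where 56.3% of all detectable genes had one, or 52.6% after quantile normalization. Sap30, a subunit of the Sin3 repressor complex, was 1.75-fold higher and Smurf1, a ubiquitin ligase, 1.37-fold. Of the Sp factors, which bind the same GC boxes, 4 of 8 measured were detectable and 0 passed 2-fold, with Sp3 differing by 0.28 and Sp4 by -0.23.

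Genes that respond to TGF-beta, to activation or to glucocorticoids were given the same reading, beside 5.41% of all detectable genes past 2-fold. The Tc9 culture received IL-4, TGF-beta and the antibody to interferon gamma together, so their effects cannot be told apart here. RNA was taken at day 5, after 2 days in IL-2 medium, so early responses to these additions were not sampled. Of 11 measured TGF-beta early genes, 2 passed 2-fold upward in Tc9 cells, Itgae, the CD103 integrin chain, at least 20.1-fold and Ldlrad4, which restrains SMAD signalling, at least 3.11-fold, and 0 passed 2-fold downward, with a median of 0.65. Pmepa1, which also restrains it, was 1.67-fold higher and Smad7 at least 1.13-fold, while Tgif1, a co-repressor, differed by -0.85. Klf10, in the same direction, was 1.40-fold higher. Of 20 immediate-early genes, 1 passed 2-fold upward, Egr2 at 3.80-fold, and 2 downward, Atf3 at 2.86-fold and Jun at 2.39-fold, with a median of -0.18. Egr3 differed by 0.96 and Nr4a1 by -0.95. The relation of any of these lists to the Klf differences was not tested. Of 7 detectable glucocorticoid-induced genes, Sgk1 was the one past 2-fold, and the median was -0.23, with Dusp1 at -0.75, Il7r at -0.30, Ddit4 at -0.23 and Fkbp5 at -0.23, while Klf9 was 0.62.

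**Figure D4:**
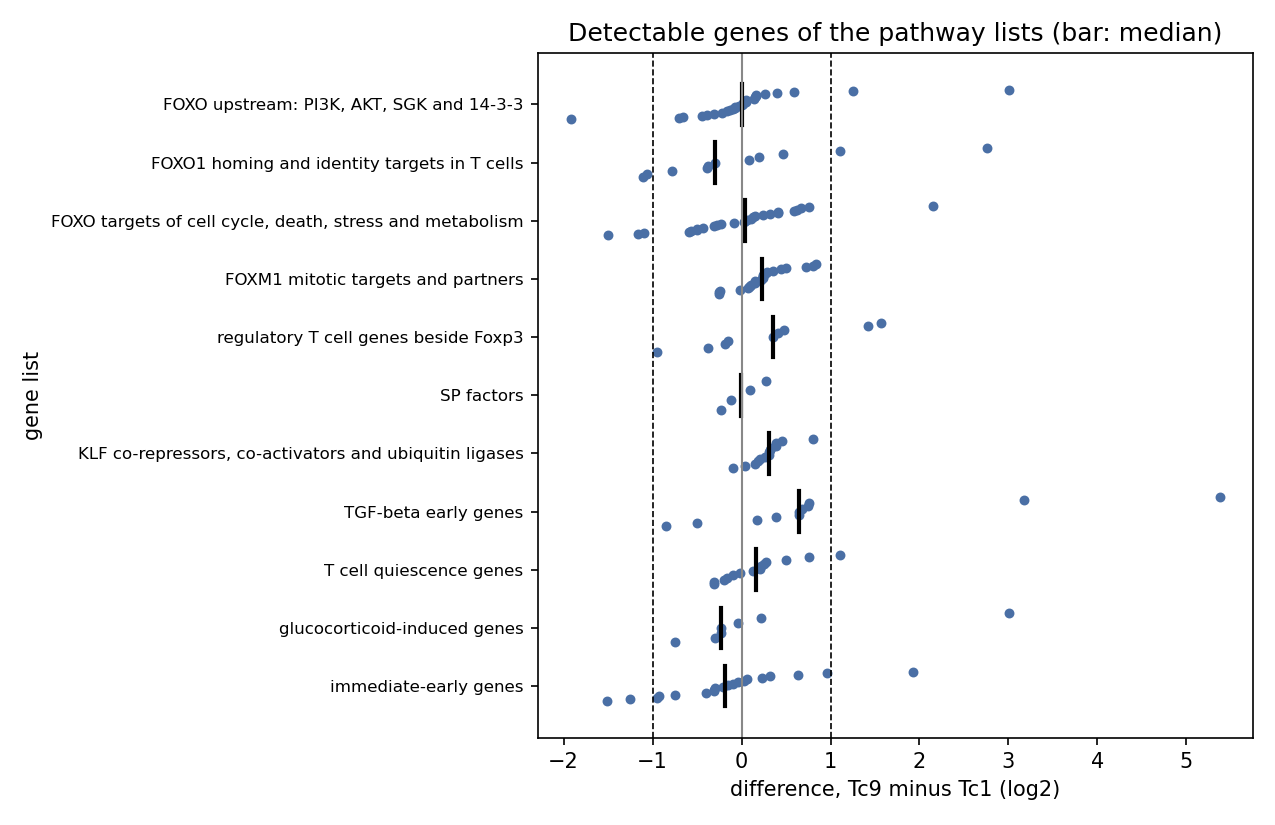
Difference Tc9 minus Tc1 (log2, x axis) of the detectable genes (points) of 11 pathway lists (y axis), with the median of each list as a black bar and 2-fold dashed. The median of the TGF-beta early list lies farthest right at 0.65, the mitotic list stays inside the 2-fold lines, and the FOXO lists spread to both sides.

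Markers of other cells moved with the groups to some extent. All 10 measured B cell markers were lower in Tc9 cells, except that Ebf1 turned after median centring, with a median difference of -0.44 and a summed intensity of 3371 in Tc9 and 5063 in Tc1. Cd79a, a B cell receptor chain, had log2 signals of 9.68 in Tc9 and 10.65 in Tc1, and Ly6d was 4.66-fold lower. B cells also express Foxo1, Foxp1 and Klf6. Monocyte and macrophage markers were detectable for 3 of 9, with a summed intensity of 986 in Tc9 and 1026 in Tc1. Lyz2 had 8.79 in Tc9 and 8.36 in Tc1, and Fcgr3 differed by -0.87. Of 8 CD8 T cell markers, 7 were lower in Tc9 cells, or 6 after median centring, with a median of -0.23 and a summed intensity of 23097 in Tc9 and 26025 in Tc1. Erythroid markers were detectable for 3 of 5 measured, with 0 past 2-fold, and epithelial and endothelial markers for 2 of 6, with 0 past 2-fold. The part of these cells in the Fox and Klf differences was not tested.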

How the data were processed

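RNA of 1 Tc9 and 1 Tc1 culture was labelled with biotin by a sense-target method and hybridized to Affymetrix arrays, per the labels' protocols. The authors deposited probe set intensities on a linear scale. How probes were summarized, background-corrected and normalized is not given in the sources used here. Medians were 53.1 on the Tc9 and 57.2 on the Tc1 array, and the values were used as log2 without further normalization. Of 28846 probe sets, 19572 had 1 symbol in the platform annotation, 0 had several and 9274 had none. The RefSeq gene table (GRCm38.p6) held all 19572 Entrez numbers. The brightest probe set stood for each of the 55 genes with several. The build of the array is not stated.

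Differences are log2 Tc9 minus log2 Tc1. A fold against a dim array uses the threshold of 6.43 and is a bound. The 17 gene lists held 226 genes, of which 209 were measured. Members and lists were chosen with earlier results of these data known. Every detectable member was named, dim members where they passed 2-fold, and from each list at most 5 detectable genes with the largest difference, plus defining markers. The dim genes Foxo4, Foxo6, Foxp2, Klf1 and Klf4 were added after their values were seen. So were the list genes Akt1, Akt2, Mybl2, Lin9, Lin54 and Ube2c, and Il9 and Ifng. The counting code was also run on simulated data. The outcome of that run is not given here, and it lends no weight to the differences. Python 3.11.15, numpy 2.4.6 and pandas 2.3.3 were used.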

Additional observations from a re-analysis of the deposited data

How the results depend on the processing

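No replicate could be left out. No paired analysis was possible because each group has 1 array. The count of Fox and Klf genes at least 2-fold higher in Tc9 cells was 0 and became 2 of 54 without a filter on dim genes. These 2 were the dim Foxf2 and Foxc1, and without the filter 352 of all 19505 genes were higher by 2-fold. Under a 1.5-fold rule the counts were 2 higher and 2 lower, against 791 and 688 over all genes, with Klf8 among the lower by its dim measured value alone. With dim values also at the threshold, a setting chosen after seeing the data, they were 2 higher and 1 lower, against 700 and 548. The count of 1 gene lower, Klf6, held under median centring, quantile normalization, a pseudocount of 16, dim values at the threshold, averaged probe sets and a threshold of 7.16 from the negative controls. Over all genes, 266 higher and 283 lower became 308 and 245 after median centring, and 218 and 244 with the pseudocount. No list median moved by as much as 0.33, the robust spread of all detectable differences, under these settings. Many list medians are smaller than 0.33, so this does not show that their direction held. With the threshold from the negative controls, the erythroid median went from -0.28 to 0.01. The FOXO upstream median went from 0.01 to -0.02 after quantile normalization. The median of the Sp factors went from -0.01 to 0.06 after median centring. Signal over background limits 35 of the 54 genes on both arrays, and Klf8 on the Tc9 array. Foxd3 and Klf8 also lie below 7.16 on both arrays.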
